A study of Mus musculus with 36 samples.

Results

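Lungs of ovalbumin-challenged KitWsh mice engrafted with cells labelled MC were compared with lungs of ovalbumin-challenged KitWsh mice that received no engraftment. The comparison took the arrays whose titles read KitWsh.OVA.MC (KitWsh_MC OVA, 4 arrays) and KitWsh.OVA.None (KitWsh OVA, 4 arrays), 8 of the 36 arrays of a mouse model of severe asthma with 10 groups. Both groups were female C57BL/6 mice that carry the sash mutation at Kit (KitWsh), so the mutation is shared and the labels differ in the engraftment. Ovalbumin (OVA) was injected into the peritoneum 3 times (50 µg in 0.1 ml PBS, days 1, 4 and 7) to sensitise both groups, and from day 12 both inhaled 20 µg of it in 30 µl PBS once a week over 9 weeks. The mice are described as age-matched with no age given. The label MC is not spelled out and is read here as mast cells, while the sources used here do not state the origin, number or route of the engrafted cells or the time allowed for engraftment. Lung RNA was hybridised to Affymetrix mouse expression arrays, 1 for each sample, and all levels below are deposited log2 intensities, on which a step of 1 is a 2-fold change. Nothing in the labels says whether each array is another animal, and a p-value here covers the spread among the arrays, which may be technical. KitWsh_MC and KitWsh mice given PBS in place of OVA (3 arrays each) served for 1 further comparison. Levels of OVA-challenged mice titled B6.OVA.None (WT OVA, 4 arrays), whose titles carry no KitWsh label, are given for a few genes. KitWsh_MCigeR PBS stands for PBS-treated KitWsh mice engrafted with cells labelled MCigeR, which enter only a refit of all 36 arrays.

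Mast cells are tissue-resident granulocytes that store histamine, heparin and proteases and release them with cytokines and lipid mediators when IgE receptors on their surface are crosslinked by antigen. They need signalling through the receptor tyrosine kinase Kit to develop and survive. The sash allele is an inversion upstream of Kit that removes its expression from the mast cell lineage, and sash mice are used as mast cell-deficient recipients into which mast cells can be engrafted. In allergic airway disease, the type 2 response recruits eosinophils, turns airway epithelial cells into mucus-producing goblet cells and induces arginase and chitinase-like proteins in macrophages.

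Mast cell transcripts were the check on the engraftment label, and several that encode granule proteins were higher in the engrafted lungs. Cma1, the mast cell chymase, had log2 levels of 6.86, 7.93, 7.31 and 7.81 in the 4 KitWsh_MC OVA lungs, against 4.40, 4.12, 2.84 and 2.82 in the 4 KitWsh OVA lungs. Every engrafted lung was above every KitWsh lung, and all 4 KitWsh lungs lay under 5, the level below which a gene is treated here as not measured above background. The difference was 3.94 ± 0.40 on the log2 scale (standard error, limma, adjusted p = 0.00153), at least 5.58-fold when the KitWsh level is set to 5. Cpa3, the mast cell carboxypeptidase, had 5.36, 6.16, 6.30 and 7.39 in KitWsh_MC OVA lungs, against 3.40, 3.07, 3.05 and 3.18 in KitWsh OVA lungs. These groups were also apart, by 3.13 ± 0.35 (adjusted p = 0.00301), at least 2.46-fold. Hdc, the enzyme that makes histamine, rose by 1.24 ± 0.22 (adjusted p = 0.0158) by its brighter probe set, while its other probe set differed by −0.01, and the call stood in 5 of 8 omissions of 1 array. Lung RNA comes from all cells together, so more cells of a type and more RNA per cell cannot be told apart here or below.

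Not all mast cell transcripts followed. Of the 20 genes on the mast cell list, 19 had values and 9 passed the filter on low values, of which Cma1, Cpa3 and Hdc were called higher and Mcpt8 lower. Cma1, Cpa3 and Fcer1a passed it only through the engrafted lungs and Mcpt8 only through the KitWsh lungs. The filter thus conditions these counts on the outcome, and of the 5 members not under 5 throughout a group Hdc was the 1 call. Over all tested genes 2.97% were called higher and 2.57% lower. Kit had 6.32, 5.61, 5.54 and 6.31 in KitWsh_MC OVA lungs, against 6.10, 6.51, 5.85 and 6.74 in KitWsh OVA lungs, and these values overlapped (−0.36 ± 0.27, adjusted p = 0.399). Both group means were under the WT OVA mean of 9.78 ± 1.93 (SD, n = 4). Fcer1a, the alpha chain of the IgE receptor, was 1.08 ± 0.31 (adjusted p = 0.0653), with all KitWsh lungs under 5. Gata2, a transcription factor of mast cells and endothelium, was 0.04, Rab27b, a granule-transport protein, 0.19, and the granule proteoglycan Srgn −0.61. None of these genes, Fcer1a included, passed the test.

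Among the mast cell transcripts that did not pass the filter, those of a tryptase and a chymase lay above their level in KitWsh lungs. Tpsb2, a tryptase, had 5.23, 4.86, 3.60 and 5.85 in KitWsh_MC OVA lungs, against 2.50, 2.41, 2.38 and 2.37 in KitWsh OVA lungs, which did not overlap. Mcpt4, a chymase, had 2.69, 2.21, 3.68 and 4.30 in KitWsh_MC OVA lungs, against 2.21, 2.19, 2.21 and 2.19 in KitWsh OVA lungs, with engrafted array 2 level with the KitWsh lungs. The mucosal proteases Mcpt1 and Mcpt2 and the genes Tpsab1, Mrgprb1, Slc18a2, Hpgds and Cyp11a1 stayed under 2.7 on all 8 arrays, near the floor of 2.19, and Ms4a2, the beta chain of the IgE receptor, overlapped at 3.34, 4.73, 3.85 and 3.48 in KitWsh_MC OVA lungs, against 4.62, 3.96, 3.48 and 3.48 in KitWsh OVA lungs. The Mcpt8 call was lost without KitWsh array 2. The mean level of the 9 tested genes ran from 7.38 to 7.93 over the KitWsh_MC OVA lungs and from 6.53 to 7.15 over the KitWsh OVA lungs. That mean includes Mcpt8 and 3 genes that passed the filter only through the engrafted lungs. Its gap is therefore partly set by the filter, and the median difference of the 5 other members was 0.04.

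**Figure D1:**
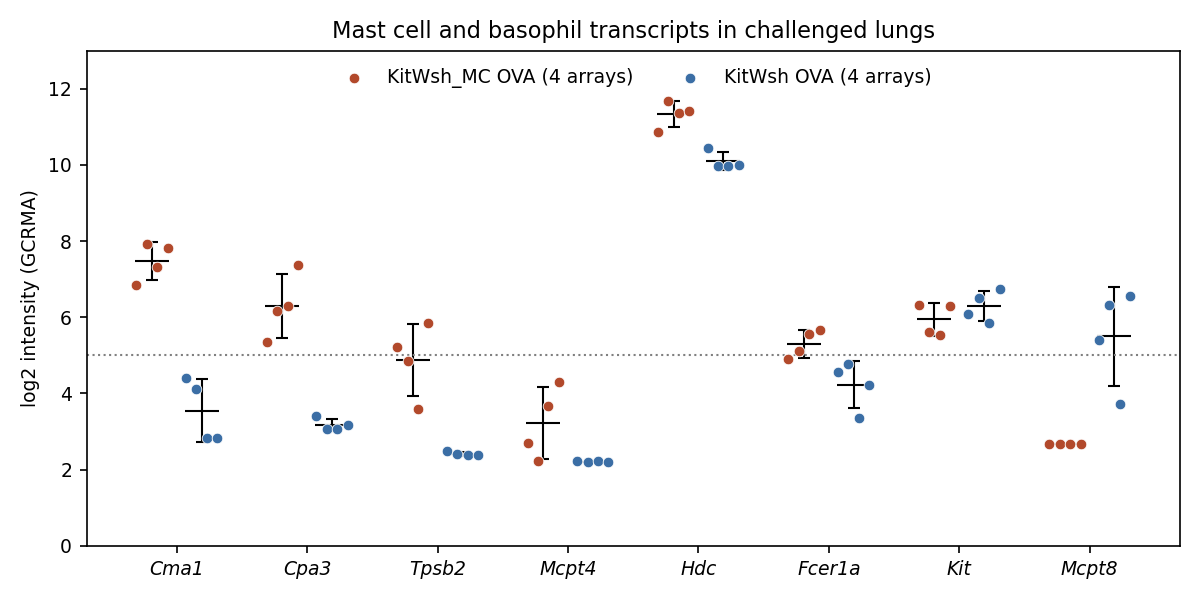
Log2 intensity of 8 mast cell and basophil transcripts in 4 KitWsh_MC OVA lungs (left of each pair) and 4 KitWsh OVA lungs (right). Points are arrays, bars are the mean ± SD and the dotted line is the level of 5 used in the filter. Cma1, Cpa3 and Tpsb2 lay higher in every engrafted lung, Kit overlapped, and Mcpt8 read 2.68 on all 4 engrafted arrays.

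RNA quality varied between arrays. The gap between the 3' and 5' beta-actin control probe sets, which widens as RNA breaks down, was 2.33, 6.23, 2.21 and 2.61 log2 units in KitWsh_MC OVA lungs 1 to 4, against 2.62, 1.70, 1.29 and 1.35 in KitWsh OVA lungs 1 to 4. The GAPDH gap was 2.52, 6.77, 2.74 and 2.19 in KitWsh_MC OVA lungs, against 2.30, 0.769, 0.369 and 0.689 in KitWsh OVA lungs. KitWsh_MC OVA array 2 was degraded by both controls, and KitWsh OVA array 1 was the KitWsh array most like the engrafted ones. The group means were 3.34 ± 1.93 and 1.74 ± 0.61 for beta-actin (SD, n = 4 each, exact permutation p = 0.114, two-sided) and 3.55 ± 2.16 and 1.03 ± 0.863 for GAPDH (exact p = 0.0571), where the smallest p that 4 against 4 allows is 0.0286. Pearson correlations between the 8 arrays ran from 0.832 to 0.993, and KitWsh_MC OVA array 2 had the lowest median correlation with the others, 0.900. KitWsh OVA array 3 stood apart in another way, with the lowest levels of several acute-phase and goblet cell transcripts given below.

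**Figure D2:**
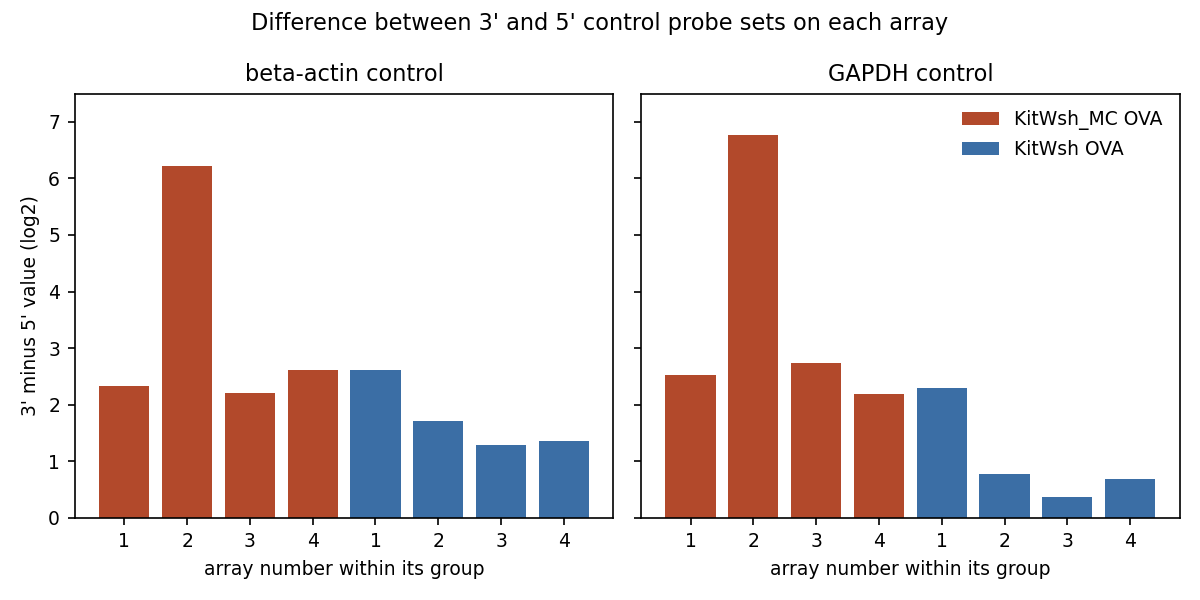
Difference between the 3' and 5' control probe sets (log2) for beta-actin and GAPDH on each array, KitWsh_MC OVA arrays left of KitWsh OVA arrays. KitWsh_MC OVA array 2 reached 6.23 and 6.77, and KitWsh OVA array 1, at 2.62 and 2.30, lay close to the other engrafted arrays.

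Across 11121 tested genes, 616 (5.54%) were called at an adjusted p under 0.05, 330 (2.97%) higher and 286 (2.57%) lower in KitWsh_MC OVA lungs. At an unadjusted p under 0.05 the count was 3163 (28.4%). All 4 engrafted lungs lay above all 4 KitWsh lungs for 1035 genes (9.31%) and below them for 1024 (9.21%), and 329 of the higher and 275 of the lower calls were among these. The change was over 2-fold for 228 higher and 230 lower calls, and over 4-fold for 41 and 19. The median difference of all tested genes was −0.03. Without the degraded KitWsh_MC OVA array 2 there were 579 calls (5.21%), 349 higher (3.14%) and 230 lower (2.07%), and 271 of the 330 higher and 196 of the 286 lower calls remained. With the beta-actin gap as a covariate there were 201 calls (1.81%), 148 higher (1.33%) and 53 lower (0.477%), of which 122 and 45 were among the original ones. KitWsh OVA array 1 was the KitWsh array nearest the engrafted ones in 60.9% of the higher and 55.9% of the lower calls, and KitWsh_MC OVA array 2 was the engrafted array farthest from the KitWsh ones in 53.0% and 61.5%. The median size of the calls was 1.15 for higher and 1.24 for lower genes, and 0.862 and 0.855 when engrafted arrays 1, 3 and 4 were set against KitWsh array 1 alone, whose RNA quality was alike. All 616 kept their direction in that comparison of 3 arrays with 1, which has no test. For the 329 higher and 275 lower calls without overlap between the groups, that direction was fixed in advance, so it says nothing of RNA quality. The part of RNA quality in the calls was not tested. The count also moved with single arrays, to 189, 280 and 950 without engrafted arrays 1, 3 and 4 and to 105, 112 and 142 without KitWsh arrays 2, 3 and 4, and 66 higher and 20 lower genes were called whichever array was left out.

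The highest differences were in arginase, tissue inhibitor of metalloproteinases and acute-phase genes. Arg1, which splits arginine into ornithine and urea and marks type 2-activated macrophages, had 9.76, 8.20, 12.11 and 9.82 in KitWsh_MC OVA lungs, against 4.23, 3.81, 2.82 and 3.69 in KitWsh OVA lungs. The lowest engrafted lung was array 2 and the highest array 3, and every one of them lay well above the KitWsh lungs, none of which reached 5. Arg1 rose by 6.33 ± 0.67 (adjusted p = 0.00194), at least 31.3-fold. Timp1, an inhibitor of matrix metalloproteinases, had 11.06, 10.41, 11.28 and 10.90 in KitWsh_MC OVA lungs, against 5.60, 6.10, 4.40 and 5.65 in KitWsh OVA lungs. The groups were over 4 log2 units apart at their nearest arrays, and the difference was 5.47 ± 0.34 (adjusted p = 3.33e-05, 44.4-fold). Timp1 was called under each of 20 other settings, with the difference between 5.13 and 5.69, and Arg1 under 19 of them, its adjusted p being 0.0537 in the fit without a filter on low values.

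Saa3, a serum amyloid A protein made in inflamed tissue, had 11.81, 12.80, 11.81 and 11.57 in KitWsh_MC OVA lungs, against 7.72, 7.10, 3.90 and 7.44 in KitWsh OVA lungs. KitWsh array 3 was lowest by over 3 log2 units, and the engrafted lungs stayed above the other 3 as well. The difference was 5.46 ± 0.72 (adjusted p = 0.00654) and 4.58 without KitWsh array 3 (adjusted p = 0.000227). Orm1, the acute-phase acid glycoprotein, had 7.02, 6.50, 6.71 and 7.25 in KitWsh_MC OVA lungs, against 2.54, 3.10, 2.59 and 2.63 in KitWsh OVA lungs. It was under 5 in every KitWsh lung and over 6 in every engrafted lung (4.16 ± 0.22, adjusted p = 1.12e-05, at least 3.66-fold). Il6, the cytokine that induces acute-phase proteins, had 5.83, 6.54, 6.27 and 4.53 in KitWsh_MC OVA lungs, against 2.38, 2.38, 2.31 and 3.30 in KitWsh OVA lungs, lowest in engrafted array 4 and still apart from all KitWsh lungs (3.20 ± 0.41, adjusted p = 0.00632, at least 1.73-fold).

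The promoters of Saa3 and Il6 are shown because both genes are textbook targets of C/EBP family factors, which act in acute-phase induction, and both rose here. The 250 bases before the annotated start come from RefSeq, build GRCm38.p6, 5′ to 3′ on the gene's strand. Capitals mark every match to TTNNGNAA or its reverse complement TTNCNNAA, a simple form of the C/EBP site.
Saa3 (chr7:46715677-46715926, minus strand): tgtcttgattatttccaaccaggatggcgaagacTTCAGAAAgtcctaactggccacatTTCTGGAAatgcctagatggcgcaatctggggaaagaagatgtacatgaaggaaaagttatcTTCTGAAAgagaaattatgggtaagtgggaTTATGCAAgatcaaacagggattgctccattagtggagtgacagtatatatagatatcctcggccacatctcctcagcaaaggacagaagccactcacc
Il6 (chr5:30012864-30013113, plus strand): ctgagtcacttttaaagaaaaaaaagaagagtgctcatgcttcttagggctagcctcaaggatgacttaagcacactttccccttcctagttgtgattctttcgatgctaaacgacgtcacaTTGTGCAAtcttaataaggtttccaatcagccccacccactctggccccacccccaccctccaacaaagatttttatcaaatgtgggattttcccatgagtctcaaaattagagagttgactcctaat
Saa3 held 4 matches and Il6 held 1, as did Timp1, whose promoter is not printed. Of 32841 promoters of this length, 36.9% held at least 1 match, so a match is a description of the letters and not of a site in use.

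Across the list of acute-phase and inflammatory genes, 22 were written and 13 passed the filter, of which 8 rose and none fell. Their median difference was 1.65, against −0.03 over all tested genes, of which 2.97% were called higher. Orm1, Il6, Ccl3, Ccl4 and Il1rn, 5 of the 8, were under 5 in all KitWsh lungs and passed the filter only through the engrafted ones, so count and median are partly set by the filter. With members at their bounds the median was 0.79, and of the 7 members not under 5 throughout a group 3 rose and none fell. Besides Saa3, Orm1 and Il6, these were the chemokines Cxcl1 (2.27 ± 0.37), Ccl3 (2.02 ± 0.26), Ccl4 (1.64 ± 0.28) and Ccl9 (1.65 ± 0.33) and the interleukin 1 receptor antagonist Il1rn (1.79 ± 0.30). Cxcl1, which attracts neutrophils, had 8.10, 7.88, 7.10 and 7.38 in KitWsh_MC OVA lungs, against 5.18, 5.87, 4.35 and 5.99 in KitWsh OVA lungs. Ccl3, a macrophage inflammatory protein, had 6.08, 5.82, 6.00 and 6.56 in KitWsh_MC OVA lungs, against 4.08, 4.09, 3.55 and 4.68 in KitWsh OVA lungs. Both were apart between the groups (adjusted p = 0.0126 and 0.00632), and Ccl3 was at least 2.17-fold, Ccl4 at least 1.39-fold and Il1rn at least 1.14-fold higher. Il1b was level at 0.03 and its values overlapped, and Lcn2 (0.73), Hp, Cxcl3 and Ccl20 (−1.59) were not called. The count was 8 higher and 0 lower without the degraded array, 7 and 0 with the beta-actin covariate, and 7 and 1 without KitWsh array 3.

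Some type 2 genes were far higher and others level. Of 20 written, 12 passed the filter, and Arg1, Ccl11, Il33 and Retnlb rose while none fell (median 0.75). The share called higher over all tested genes was 2.97%. Arg1, Ccl11 and Retnlb passed only through the engrafted lungs, and of the 9 members not under 5 throughout a group Il33 alone was called. With the 3 at their bounds the median was 0.58. Ccl11, the eosinophil attractant eotaxin-1, had 7.75, 6.52, 8.09 and 6.47 in KitWsh_MC OVA lungs, against 2.94, 4.55, 3.19 and 4.54 in KitWsh OVA lungs (3.40 ± 0.48, adjusted p = 0.00748, at least 4.62-fold). Il33, an epithelial alarmin that activates mast cells and innate lymphoid cells, had 13.20, 12.74, 12.97 and 13.11 in KitWsh_MC OVA lungs, against 12.03, 11.92, 11.18 and 11.99 in KitWsh OVA lungs (1.23 ± 0.23, adjusted p = 0.0196). Its level was the lowest in KitWsh array 3, and the groups did not overlap. Retnlb, a resistin-like protein of the epithelium, had 2.57, 6.98, 6.89 and 5.32 in KitWsh_MC OVA lungs, against 2.19 in all 4 KitWsh OVA lungs. Engrafted array 1 was near the floor, and the call (3.25 ± 0.80, adjusted p = 0.0449) was lost without array 2 (2.74, adjusted p = 0.0615) and stood in 1 of the 8 omissions of 1 array. The chitinase-like proteins Chil3 (0.35) and Chil4 (0.23) and the chemokines Ccl17 (0.21) and Ccl22 (−0.26) overlapped between the groups and were not called, and Il4, Il5 and Il13 lay near the floor. Without the degraded array 4 genes of the list were called again, with the mannose receptor Mrc1 in place of Retnlb, and without KitWsh array 2 there were 2.

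Goblet cell genes did not rise together. Of 15 tested, Slc26a4 and Agr2 rose and none fell, with a median of 0.70, where 2.97% of all tested genes rose. Slc26a4, the anion exchanger pendrin of inflamed airway epithelium, had 10.94, 10.98, 11.29 and 11.23 in KitWsh_MC OVA lungs, against 8.31, 8.33, 4.60 and 8.10 in KitWsh OVA lungs. Agr2, a disulfide isomerase needed for mucin production, had 9.22, 8.34, 9.60 and 9.42 in KitWsh_MC OVA lungs, against 6.84, 7.04, 5.23 and 6.89 in KitWsh OVA lungs. Array 3 was the lowest KitWsh lung for both genes, and without it the differences were 2.86 for Slc26a4 and 2.22 for Agr2, against 3.77 ± 0.71 (adjusted p = 0.0219) and 2.65 ± 0.41 (adjusted p = 0.0110) with it. The Slc26a4 call stood in 6 of 8 omissions. The mucins were not called: Muc5ac had 6.90, 5.01, 6.96 and 7.87 in KitWsh_MC OVA lungs, against 7.17, 7.26, 5.96 and 7.40 in KitWsh OVA lungs, and Muc5b was −0.10 ± 0.37. Clca1, a secreted goblet cell protein, had 12.82, 10.12, 13.18 and 13.57 in KitWsh_MC OVA lungs, against 13.25, 14.02, 13.05 and 14.21 in KitWsh OVA lungs, lowest in the degraded array and overlapping (−1.21 ± 0.65, adjusted p = 0.242). Without engrafted array 1 only 1 goblet cell gene was called, and with the beta-actin covariate 1.

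Other genes among the 12 highest were less tied to a list. Fxyd4, a small regulator of the sodium pump, had 7.63, 8.41, 7.98 and 7.73 in KitWsh_MC OVA lungs, against 4.02, 3.77, 3.58 and 3.77 in KitWsh OVA lungs, a clear gap with small spread on both sides (4.15 ± 0.21, adjusted p = 1.12e-05, at least 7.66-fold). Cfi, complement factor I, had 6.56, 6.34, 6.50 and 6.74 in KitWsh_MC OVA lungs, against 3.60, 2.76, 2.76 and 2.89 in KitWsh OVA lungs (3.53 ± 0.22, adjusted p = 3.33e-05, at least 2.90-fold). Both were called under all 20 other settings. Chl1, a neural cell adhesion molecule, had 6.66, 3.35, 6.58 and 6.15 in KitWsh_MC OVA lungs, against 2.19 to 2.23 in KitWsh OVA lungs, with the degraded array the low one (3.48 ± 0.62, adjusted p = 0.0170). Aldh1a3, a retinaldehyde dehydrogenase, had 5.95, 6.48, 6.46 and 3.99 in KitWsh_MC OVA lungs, against 2.25 in all KitWsh OVA lungs (3.47 ± 0.47, adjusted p = 0.00699). For Chl1 and Aldh1a3 the KitWsh values sit at the floor, so only the at least 1.61-fold and 1.65-fold bounds can be given.

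**Figure D3:**
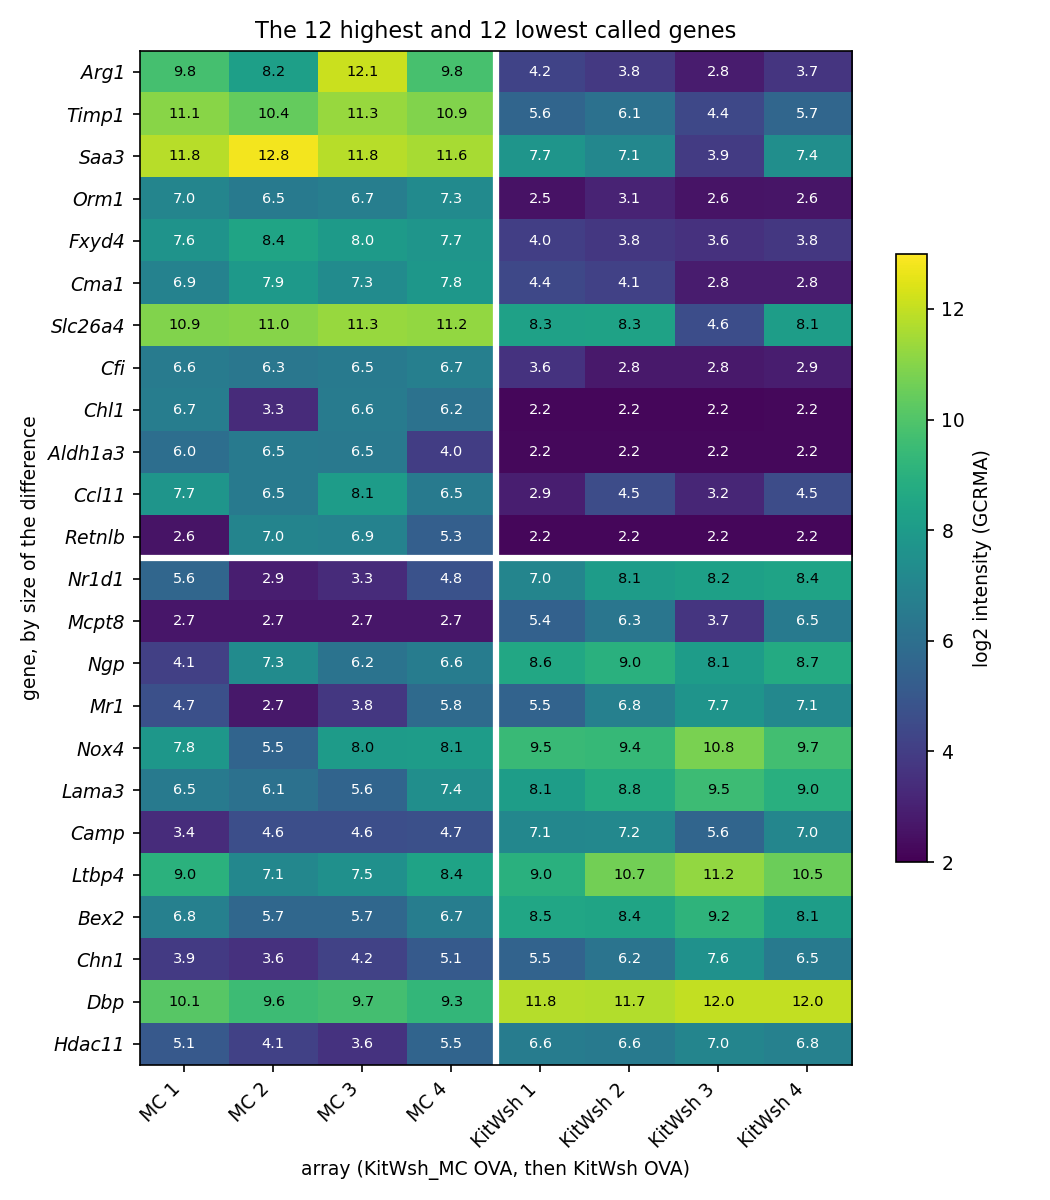
Log2 intensity of the 12 highest and 12 lowest called genes on each array, KitWsh_MC OVA arrays left of KitWsh OVA arrays. Colour and number give the level. Arg1, Timp1, Orm1 and Fxyd4 were high in all 4 engrafted lungs, Chl1 was low in array 2 and Retnlb in array 1, and Mr1 and Ltbp4 overlapped between the groups.

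Macrophage markers moved in both directions. The shares called over all tested genes were 2.97% higher and 2.57% lower. Among 16 tested genes listed as markers of recruited macrophages, Cd163, Ms4a6d and Cd14 were called higher and none lower (median 0.55). Cd163 passed the filter only through the engrafted lungs, and of the 15 other members 2 were called. Without overlap between the groups, 3 members lay higher and 2 lower, against 9.31% and 9.21% of all tested genes. The lower ones, Cx3cr1 (means 6.76 and 7.62) and Apoe (10.06 and 11.53 in KitWsh_MC OVA and KitWsh OVA lungs), were not called. Cd163, the haptoglobin-haemoglobin scavenger receptor, had 7.15, 6.75, 8.36 and 6.07 in KitWsh_MC OVA lungs, against 4.17, 3.88, 3.38 and 4.14 in KitWsh OVA lungs (3.19 ± 0.42, adjusted p = 0.00632, at least 4.24-fold). Its mean was 7.08 after OVA and 5.26 after PBS in KitWsh_MC lungs, against 3.89 and 4.99 in KitWsh lungs. Cd163 was thus not higher after challenge in KitWsh lungs, although it is listed with recruited macrophages. Among 14 tested markers of alveolar macrophages, the scavenger receptor Marco (2.44 ± 0.37), the lipid-binding protein Fabp4 (1.68 ± 0.38) and Fabp5 rose, while Fabp1 (−1.95 ± 0.38) and Siglecf (−1.26 ± 0.25), a lectin of alveolar macrophages and eosinophils, fell. Marco had 8.17, 7.66, 7.78 and 7.96 in KitWsh_MC OVA lungs, against 6.09, 5.76, 4.17 and 5.80 in KitWsh OVA lungs. Siglecf had 5.96, 5.38, 5.05 and 5.75 in KitWsh_MC OVA lungs, against 6.80, 6.92, 6.31 and 7.14 in KitWsh OVA lungs. Neither overlapped between the groups, so markers of the same cell type went opposite ways. With the beta-actin covariate 2 alveolar markers stayed higher and none lower, the adjusted p being 0.0501 for Fabp1 and 0.0691 for Siglecf. Of the 3 higher alveolar calls 1 stood without engrafted array 1, 3 or 4 or KitWsh array 2, 3 or 4. Of the 2 lower ones, 1 stood without engrafted array 3 or KitWsh array 3 and none without KitWsh array 2 or 4.

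Granulocyte transcripts did not move together. Mcpt8, a protease that despite its name marks basophils, had 2.68 in all 4 KitWsh_MC OVA lungs, against 5.40, 6.33, 3.71 and 6.55 in KitWsh OVA lungs. It was above 5 in 3 KitWsh lungs and at a low, constant level in the engrafted ones (−2.82 ± 0.51, adjusted p = 0.0183), at least 1.41-fold lower. Ngp, a protein of neutrophil secondary granules, had 4.07, 7.29, 6.17 and 6.61 in KitWsh_MC OVA lungs, against 8.59, 8.96, 8.10 and 8.72 in KitWsh OVA lungs (−2.56 ± 0.56, adjusted p = 0.0338). Camp, the granule peptide cathelicidin, had 3.38, 4.63, 4.63 and 4.67 in KitWsh_MC OVA lungs, against 7.09, 7.15, 5.59 and 7.05 in KitWsh OVA lungs (−2.39 ± 0.40, adjusted p = 0.0142), at least 3.29-fold lower, since all engrafted lungs were under 5. Ltf, another secondary granule protein, was 0.90 ± 0.32 (adjusted p = 0.111), and the granule collagenase Mmp8 −0.11 ± 0.28, and neither was called. Engrafted array 1 was lowest for Ngp and Camp, and neither of them overlapped between the groups. Of 11 neutrophil genes tested, 2 were called lower and 1 higher (median −0.11), where 2.57% of all tested genes were called lower and 2.97% higher. Camp passed the filter only through the KitWsh lungs. Of the 9 members not under 5 throughout a group, 1 was called lower and 1 higher. Of the 2 lower neutrophil calls, Ngp and Camp, 1 stood without engrafted array 3 or KitWsh array 1, 3 or 4 and none without KitWsh array 2. The mature neutrophil genes S100a8 (−0.06) and S100a9 (−0.69) were not called and overlapped, and the myeloid lectin Clec4d rose by 2.77 ± 0.36. The eosinophil granule gene Epx lay at the floor on all 8 arrays, and Prg2, another eosinophil granule protein, was −0.94 ± 0.39 (adjusted p = 0.144).

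A single T cell gene, a single cytotoxic gene and 6 immunoglobulin segments were called lower in the engrafted lungs. Immunoglobulin segments, counted by name after their values were seen, fell in 6 of 14 tested and rose in none (median −1.89), and 2 fell with the beta-actin covariate. Igkv6-20 had 5.07, 4.16, 5.86 and 6.31 in KitWsh_MC OVA lungs, against 7.18, 9.46, 9.42 and 9.58 in KitWsh OVA lungs (−3.56 ± 0.59, adjusted p = 0.0130). Segments of this kind share sequence, so signals of neighbours can mix, and their median was −0.60 when engrafted arrays 1, 3 and 4 were set against KitWsh array 1. Cd5, under 5 in all engrafted lungs, was at least 1.84-fold lower (adjusted p = 0.0158) and the 1 call among 11 T cell genes. It passed the filter only through the KitWsh lungs, and none of the 10 other T cell genes was called. Ccl5, a chemokine of T and natural killer cells, fell by 1.66 ± 0.28 and was the 1 call among 9 cytotoxic genes, where 2.57% of all tested genes were called lower. Ccl5 had 9.05, 8.90, 8.74 and 9.35 in KitWsh_MC OVA lungs, against 10.01, 11.25, 10.43 and 10.98 in KitWsh OVA lungs, and the groups did not overlap (adjusted p = 0.0137). The Cd5 call was lost without KitWsh array 2 or 4. None of the 12 B cell genes was called (median −0.72). Among 13 antigen presentation genes, H2-Eb1, a class II chain, was the 1 call (−1.14 ± 0.25, adjusted p = 0.0338), lost without engrafted array 1 or 3 or KitWsh array 2, 3 or 4.

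Several heat shock genes were higher in the engrafted lungs. Of 12 heat shock genes tested, 5 rose and none fell (median 0.64), where 2.97% of all tested genes were called higher. The 4 engrafted lungs lay above the 4 KitWsh lungs for 9 of the 12, and for 9.31% of all tested genes. Hspa1b, an inducible Hsp70 chaperone, had 11.00, 10.84, 10.87 and 10.48 in KitWsh_MC OVA lungs, against 9.02, 8.26, 8.50 and 8.58 in KitWsh OVA lungs. Its difference of 2.21 ± 0.21 (adjusted p = 0.00113, 4.62-fold) was called under all 20 other settings. Hsph1, an Hsp110 co-chaperone, had 10.98, 10.52, 11.20 and 11.13 in KitWsh_MC OVA lungs, against 9.52, 9.42, 9.42 and 9.23 in KitWsh OVA lungs (1.56 ± 0.19, adjusted p = 0.00543). Hspa1a (1.28 ± 0.20), the near-identical neighbour of Hspa1b whose probes may share its signal, the mitochondrial co-chaperonin Hspe1 (0.93 ± 0.18) and Chordc1 (0.80 ± 0.20) made up the rest. Without the degraded array 6 were called, with the beta-actin covariate 4, and 3 without engrafted array 1 or KitWsh array 2, 3 or 4.

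The promoters of Hspa1b and Hsph1 are shown because heat shock factors bind arrays of GAA units that face each other, and these were the highest calls of the list. Capitals mark matches to GAANNTTC and TTCNNGAA, each of which reads the same on both strands (RefSeq, GRCm38.p6, 250 bases before the start, 5′ to 3′).
Hspa1b (chr17:34959239-34959488, minus strand): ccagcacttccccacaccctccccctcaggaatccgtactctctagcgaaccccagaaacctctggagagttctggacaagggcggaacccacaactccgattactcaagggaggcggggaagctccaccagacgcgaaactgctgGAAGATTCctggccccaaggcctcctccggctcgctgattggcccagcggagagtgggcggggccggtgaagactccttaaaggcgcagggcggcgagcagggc
Hsph1 (chr5:149636337-149636586, minus strand): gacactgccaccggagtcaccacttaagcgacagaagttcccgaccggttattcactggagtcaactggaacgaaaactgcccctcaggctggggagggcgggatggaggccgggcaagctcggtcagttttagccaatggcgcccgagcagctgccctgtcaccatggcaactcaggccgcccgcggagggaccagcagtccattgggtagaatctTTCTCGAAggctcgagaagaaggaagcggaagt
Hspa1b held 1 match to GAANNTTC and Hsph1 1 match to TTCNNGAA, while 6.70% and 7.17% of all 32841 promoters hold at least 1 of each.

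Of 18 endoplasmic reticulum stress genes, Hyou1, Creld2 and Pdia6 rose and none fell (median 0.62), where 2.97% of all tested genes rose. Hyou1, a chaperone of the reticulum, had 8.03, 9.32, 8.88 and 8.56 in KitWsh_MC OVA lungs, against 7.05, 6.62, 6.48 and 6.91 in KitWsh OVA lungs (1.93 ± 0.27, adjusted p = 0.00748). Creld2, a stress-induced disulfide isomerase, had 11.86, 11.95, 12.15 and 11.83 in KitWsh_MC OVA lungs, against 10.57, 10.64, 10.12 and 10.87 in KitWsh OVA lungs (1.40 ± 0.20, adjusted p = 0.00748). Hspa5, the central chaperone of that response, was 0.62 ± 0.20 and Xbp1 0.03, and neither was called. Without the degraded array 6 of the 18 rose.

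Metal-handling genes formed a further group. Of 10 tested, 5 rose and none fell (median 0.83), where 2.97% of all tested genes rose. Mt2, a zinc-binding metallothionein, had 11.70, 11.39, 11.77 and 11.65 in KitWsh_MC OVA lungs, against 10.36, 9.86, 9.75 and 10.03 in KitWsh OVA lungs (1.63 ± 0.19, adjusted p = 0.00360). Tfrc, the transferrin receptor, had 12.02, 12.14, 11.46 and 11.51 in KitWsh_MC OVA lungs, against 10.54, 10.43, 9.89 and 10.55 in KitWsh OVA lungs (1.43 ± 0.23, adjusted p = 0.0128). Mt1 (1.10 ± 0.20), the zinc and iron importer Slc39a14 (0.93 ± 0.17) and the metalloreductase Steap4 (0.94 ± 0.20) also rose. The count was 3 without engrafted array 1 or KitWsh array 4 and 2 without KitWsh array 2 or 3. Arg2, the mitochondrial arginase, rose with Arg1 by 1.64 ± 0.25 (adjusted p = 0.0100) among 9 genes of arginine use.

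**Figure D4:**
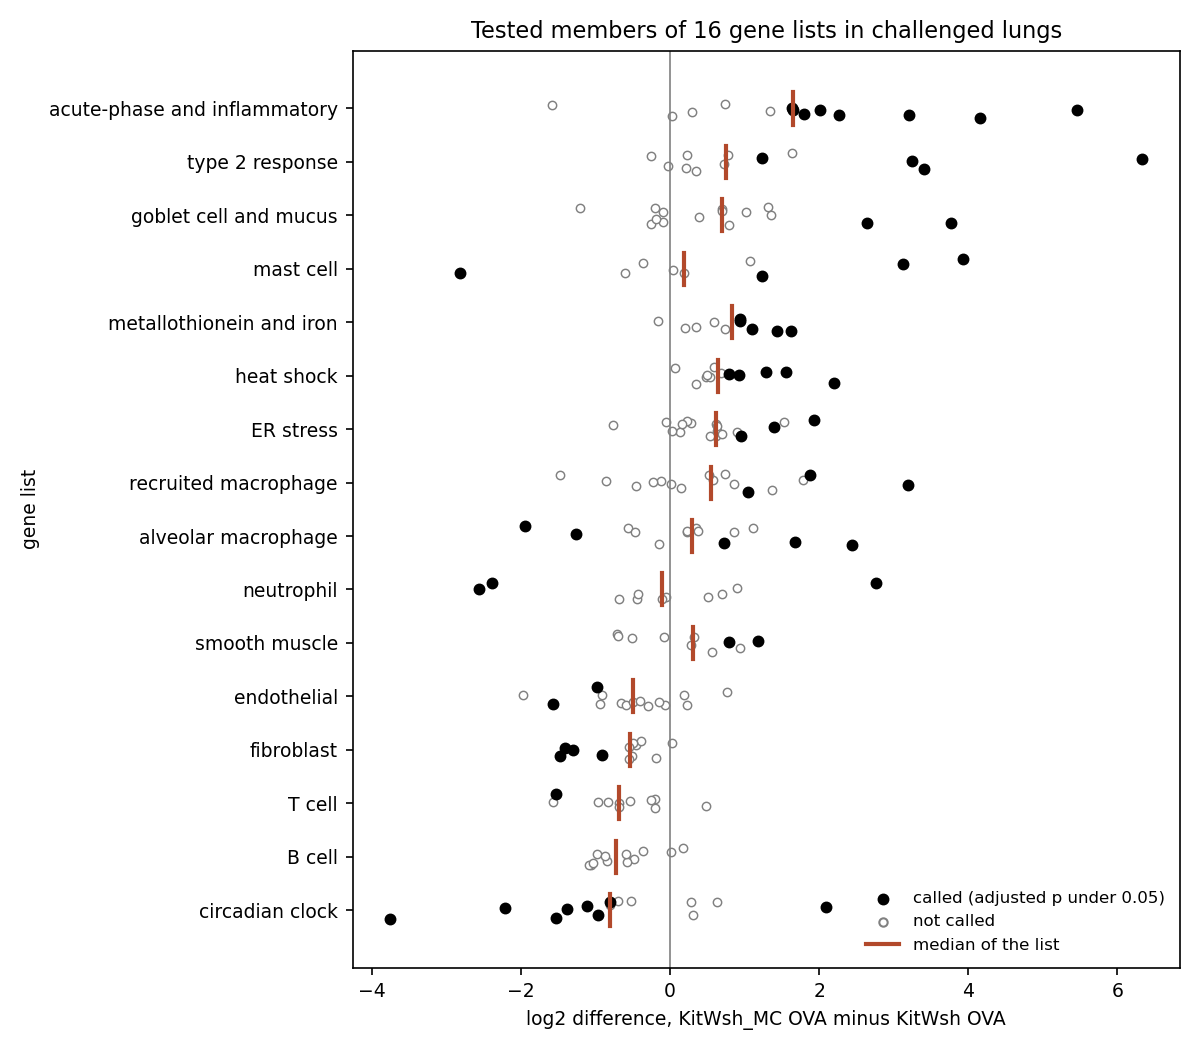
Log2 difference, KitWsh_MC OVA minus KitWsh OVA, of each tested member of the gene lists named on the vertical axis. Filled points were called at an adjusted p under 0.05, open points were not, and the bar is the list's median. The median was 1.65 for the acute-phase list, 0.79 with its members at their bounds, and −0.80 for the clock list.

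Most circadian clock genes that were called were lower in the engrafted lungs. Of 14 circadian clock genes tested, 7 fell and Nfil3 rose (median −0.80), where 2.57% of all tested genes fell and 2.97% rose. Nfil3 passed the filter only through the engrafted lungs, and of the 13 other members 7 fell and none rose. Nr1d1, the nuclear receptor REV-ERB alpha, had 5.64, 2.94, 3.33 and 4.78 in KitWsh_MC OVA lungs, against 6.99, 8.09, 8.24 and 8.40 in KitWsh OVA lungs. All engrafted lungs were below all KitWsh lungs, with a wide spread among the engrafted ones (−3.75 ± 0.55, adjusted p = 0.00938, 13.5-fold lower). Engrafted arrays 2, 3 and 4 lay under 5, so this fold rests on low values and is not an exact size. Dbp, a D-box-binding activator driven by the clock, had 10.13, 9.56, 9.70 and 9.27 in KitWsh_MC OVA lungs, against 11.75, 11.73, 12.01 and 12.01 in KitWsh OVA lungs. The spread was small on both sides, and Dbp (−2.21 ± 0.21, adjusted p = 0.00113, 4.63-fold lower) was called under all 20 other settings. Per1, a core repressor, had 7.98, 7.74, 7.90 and 8.05 in KitWsh_MC OVA lungs, against 8.94, 9.53, 9.85 and 9.47 in KitWsh OVA lungs (−1.53 ± 0.21, adjusted p = 0.00740). Nfil3, a repressor that competes with Dbp for D-boxes, went the other way, with 5.52, 4.59, 5.72 and 5.69 in KitWsh_MC OVA lungs, against 3.21, 3.82, 2.64 and 3.47 in KitWsh OVA lungs (2.09 ± 0.31, adjusted p = 0.0100, at least 1.30-fold). Per2 (−1.11 ± 0.28), Cry2 (−0.80 ± 0.20), Nr1d2 (−0.96 ± 0.24) and Ciart (−1.38 ± 0.33) were the other calls, and Clock, Cry1, Per3, Tef, Hlf and Bhlhe40 were not called. With the beta-actin covariate 3 fell and 1 rose. Leaving out any 1 array left fewer lower calls, 4 without engrafted array 1 or 2 or KitWsh array 1 and 3 without engrafted array 3 or 4 or KitWsh array 2, 3 or 4, and 2 genes rose without engrafted array 2. The sources used here do not state the time of day at which lungs were taken, so a difference in that time and an effect of engraftment cannot be told apart.

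The promoters of Per1 and Dbp are shown as clock genes that fell. Capitals mark CACGTG, the E-box bound by CLOCK and BMAL1, and TTATGNAA or its reverse complement TTNCATAA, the D-box (RefSeq, GRCm38.p6, 250 bases before the start, 5′ to 3′).
Per1 (chr11:69098699-69098948, plus strand): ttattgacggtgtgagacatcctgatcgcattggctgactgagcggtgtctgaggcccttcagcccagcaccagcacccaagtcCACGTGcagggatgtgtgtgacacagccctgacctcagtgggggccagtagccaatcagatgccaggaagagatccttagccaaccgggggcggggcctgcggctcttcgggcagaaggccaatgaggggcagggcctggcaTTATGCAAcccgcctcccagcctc
Dbp (chr7:45704997-45705246, plus strand): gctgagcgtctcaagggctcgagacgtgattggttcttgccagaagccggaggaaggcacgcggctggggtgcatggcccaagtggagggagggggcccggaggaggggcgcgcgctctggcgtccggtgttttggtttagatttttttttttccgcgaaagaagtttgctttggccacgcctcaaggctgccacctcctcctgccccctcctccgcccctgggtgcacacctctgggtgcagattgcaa
Per1 held 1 E-box and 1 D-box in this window and Dbp neither. An E-box is in 6.02% and a D-box in 3.07% of all 32841 promoters, and the absence of these letters from 250 bases says nothing of sites elsewhere in the gene.

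Fibroblast and endothelial genes gave lower and no higher calls, where 2.57% of all tested genes were called lower. Among 12 fibroblast genes, 4 fell (Npnt, Dcn, Tcf21 and Lum) and none rose (median −0.53). Npnt, a matrix protein of the alveolar wall, had 11.30, 10.91, 10.60 and 11.13 in KitWsh_MC OVA lungs, against 11.91, 12.33, 12.53 and 12.41 in KitWsh OVA lungs (−1.31 ± 0.21, adjusted p = 0.0128). Of 15 endothelial genes, Emcn (−1.57 ± 0.38) and the endothelin receptor Ednrb (−0.98 ± 0.19) fell. With the beta-actin covariate 2 fibroblast and no endothelial genes fell. Of the 4 fibroblast calls 2 stood without engrafted array 1 or 3, 1 without KitWsh array 4 and none without KitWsh array 2 or 3. Of the 2 endothelial calls 1 stood without engrafted array 3 and none without engrafted array 1 or KitWsh array 2, 3 or 4.

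Other genes among the 12 lowest belonged to several kinds. Lama3, a laminin chain of epithelial basement membrane, had 6.52, 6.11, 5.56 and 7.42 in KitWsh_MC OVA lungs, against 8.11, 8.76, 9.53 and 8.95 in KitWsh OVA lungs (−2.44 ± 0.40, adjusted p = 0.0128). Bex2 had 6.80, 5.66, 5.69 and 6.66 in KitWsh_MC OVA lungs, against 8.51, 8.40, 9.17 and 8.12 in KitWsh OVA lungs (−2.35 ± 0.32, adjusted p = 0.00740). Both were apart between the groups and were called whichever array was left out. Nox4, a hydrogen peroxide-producing oxidase, had 7.82, 5.54, 8.05 and 8.07 in KitWsh_MC OVA lungs, against 9.47, 9.37, 10.78 and 9.68 in KitWsh OVA lungs (−2.46 ± 0.55, adjusted p = 0.0349), lowest in the degraded array. Chn1, which inactivates the small GTPase Rac, fell by 2.27 ± 0.44 and was apart between the groups. The Nox4 call stood in 3 of the 8 omissions of 1 array, that of Chn1 in 3, of Ltbp4 in 4, of Mr1 in 2 and of Hdac11 in 6. Ltbp4, which holds latent TGF-beta in the matrix, was called lower (−2.35 ± 0.51) although engrafted array 1, at 9.01, lay above KitWsh array 1, at 8.98. Mr1, which presents vitamin B metabolites to T cells, was called lower (−2.52 ± 0.63) although engrafted array 4, at 5.80, lay above KitWsh array 1, at 5.50. Hdac11, a histone deacetylase, fell by 2.17 ± 0.37 by 1 probe set and was −0.15 by another.

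Matrix and muscle genes were mixed. Of 16 matrix remodelling genes, Timp1 and Tnc rose and Postn fell (median −0.19), where 2.97% of all tested genes rose and 2.57% fell. Tnc, tenascin C of healing tissue, had 7.37, 7.02, 8.94 and 8.09 in KitWsh_MC OVA lungs, against 5.31, 5.48, 4.76 and 5.67 in KitWsh OVA lungs (2.55 ± 0.38, adjusted p = 0.0100). Postn, periostin, had 11.18, 11.08, 11.41 and 11.73 in KitWsh_MC OVA lungs, against 12.04, 12.37, 12.91 and 12.34 in KitWsh OVA lungs (−1.06 ± 0.23, adjusted p = 0.0321). The fibrillar collagen genes Col1a1 (−0.87) and Col3a1 (0.56) overlapped and were not called. Among 10 smooth muscle genes, Acta2, smooth muscle actin, rose by 1.18 ± 0.20 (adjusted p = 0.0145) with Tagln (0.80 ± 0.20). Acta2 had 12.34, 12.87, 13.08 and 12.61 in KitWsh_MC OVA lungs, against 11.70, 11.36, 11.50 and 11.60 in KitWsh OVA lungs, with no overlap. With the degraded array left out 4 smooth muscle genes rose, while 1 did without engrafted array 1, 3 or 4 or KitWsh array 4 and none without KitWsh array 2 or 3. The Postn call was lost without engrafted array 1 or 3 or KitWsh array 2, 3 or 4.

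The same contrast in PBS-treated mice addressed whether the gaps were present without challenge. KitWsh_MC PBS and KitWsh PBS lungs (3 arrays each) differed by 83 calls among 11300 genes (0.735%), 39 higher (0.345%) and 44 lower (0.389%). RNA quality differed here too. The 3' minus 5' GAPDH difference was 2.93, 3.57 and 2.13 in KitWsh_MC PBS lungs, against 0.550, 1.93 and 0.838 in KitWsh PBS lungs, without overlap. For beta-actin it was 3.02, 3.41 and 2.33, against 1.74, 2.48 and 1.99, with overlap. Its part in this contrast and in the comparison of OVA with PBS was not tested. The gap between engrafted and KitWsh lungs differed between OVA and PBS for 190 genes (1.68%), 144 in the higher (1.27%) and 46 in the lower direction (0.407%), and for 164 (99 and 65) when each array was centred on its median. The count was 429 and 678 without KitWsh_MC OVA array 2 or 3, 66, 68 and 83 without KitWsh_MC PBS array 1, 2 or 3, 98 and 125 without KitWsh OVA array 2 or 3, and 84, 60 and 65 without KitWsh PBS array 1, 2 or 3. Apart from the 5 highest and 5 lowest of this test, the genes were chosen for their gap after OVA, whose 8 arrays are in both tests, so these tests are not independent of the calls above. Arg1 had 3.73, 4.18 and 3.87 in KitWsh_MC PBS lungs, against 3.03, 3.03 and 2.94 in KitWsh PBS lungs, all under 5, and its gap was 5.41 ± 0.87 larger after OVA (adjusted p = 0.00843). Saa3 was −1.40 in the PBS contrast (adjusted p = 0.277) and its gap 6.86 ± 0.96 larger after OVA (adjusted p = 0.00359). Timp1 (5.10 ± 0.52), Orm1 (4.43 ± 0.30) and Slc26a4 (4.35 ± 0.96) completed the 5 highest. Cpa3 had 3.79, 3.18 and 3.43 in KitWsh_MC PBS lungs, against 3.36, 3.05 and 3.05 in KitWsh PBS lungs, and the fitted difference of the gaps was 2.82 ± 0.47 (adjusted p = 0.00994). For Arg1, Orm1 and Cpa3 all lungs but the KitWsh_MC OVA ones were under 5, so these differences rest on low values and are not exact sizes. For Cma1 the PBS values were 5.03, 2.97 and 4.97 in KitWsh_MC lungs and 2.27, 3.69 and 2.29 in KitWsh lungs, and the gaps after OVA and PBS differed by 2.36 ± 0.77 (adjusted p = 0.127), which did not pass.

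In the lower direction, Fabp1 (−4.19 ± 0.57), Nr1d1 (−4.13 ± 0.86), Dbp (−2.79 ± 0.39), Siglecf (−2.68 ± 0.36) and Ear3 (−2.64 ± 0.60), a ribonuclease of the eosinophil-associated family, led. Fabp1 had 10.47, 9.38 and 9.85 in KitWsh_MC PBS lungs, against 7.34, 8.28 and 7.39 in KitWsh PBS lungs, so it was higher in the engrafted lungs by 2.23 after PBS (adjusted p = 0.0340) and lower by 1.95 after OVA. Siglecf behaved alike, 1.42 after PBS (adjusted p = 0.0340). For Ear3, whose family members share sequence, neither single gap was called (1.45 after PBS and −1.19 after OVA). Dbp had 11.12, 11.85 and 11.59 in KitWsh_MC PBS lungs, against 11.39, 11.19 and 10.23 in KitWsh PBS lungs, overlapping values. Not every gap was tied to challenge, and several of the 12 lowest calls had lower engrafted means after PBS too. The means in KitWsh_MC PBS and KitWsh PBS lungs were 4.39 and 6.72 for Chn1, 4.95 and 6.77 for Mr1, 7.53 and 8.91 for Lama3 and 7.31 and 9.04 for Ngp. For Nr1d1, Bex2 and Dbp the engrafted mean was the higher one after PBS.

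**Figure D5:**
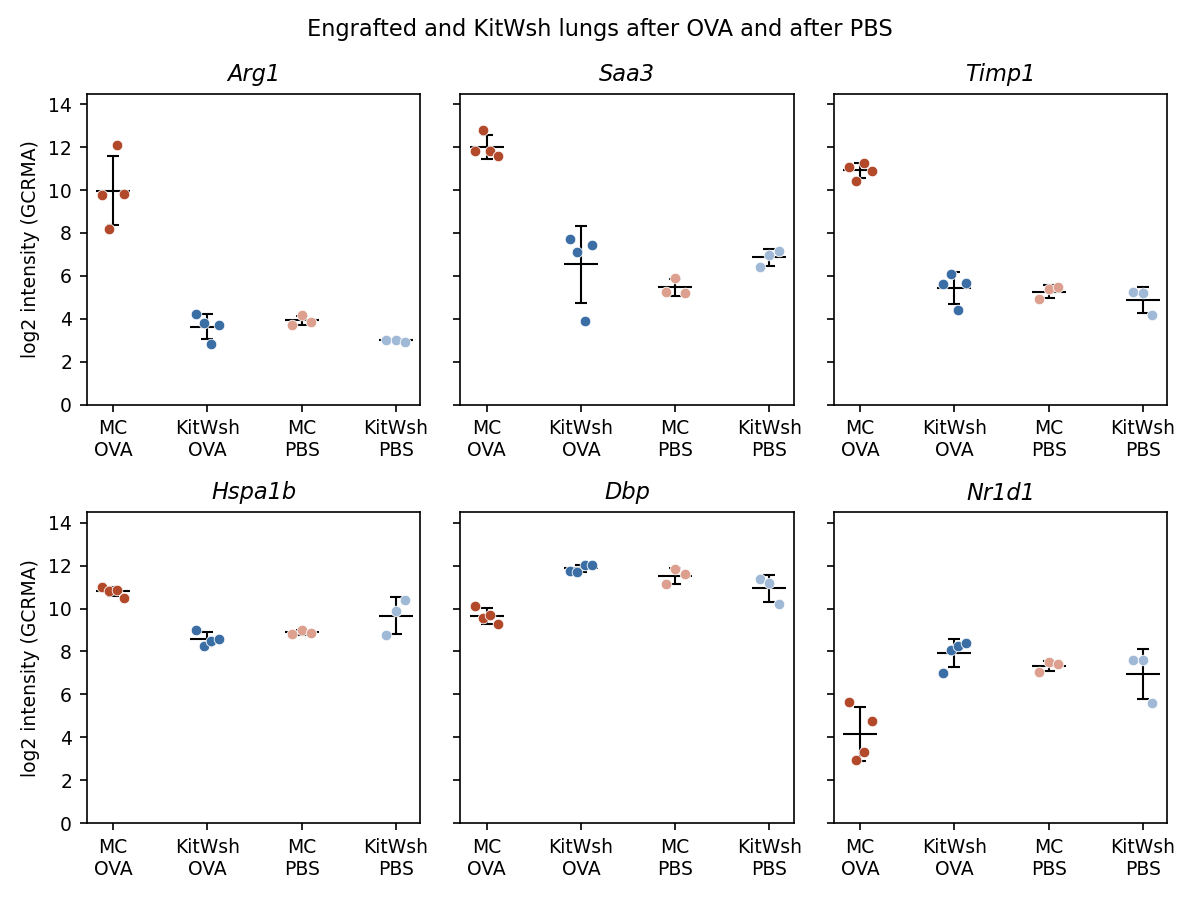
Log2 intensity of 6 genes in KitWsh_MC and KitWsh lungs after OVA (4 arrays each) and after PBS (3 arrays each). Points are arrays and bars the mean ± SD. Arg1, Saa3 and Timp1 were higher in each KitWsh_MC OVA lung than in any lung of the other groups drawn, and the means of Dbp and Nr1d1 were lowest there.

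Challenged WT mice, which have their own mast cells, give a scale for these levels, without a test. Arg1 averaged 9.97 ± 1.61 in KitWsh_MC OVA, 7.60 ± 1.82 in WT OVA and 3.64 ± 0.59 in KitWsh OVA lungs (SD, n = 4 each). Timp1 averaged 10.91 ± 0.37 in KitWsh_MC OVA, 9.36 ± 1.72 in WT OVA and 5.44 ± 0.73 in KitWsh OVA lungs. Cma1 averaged 7.48 ± 0.49 in KitWsh_MC OVA, 2.53 ± 0.26 in WT OVA and 3.54 ± 0.83 in KitWsh OVA lungs. The mean of the engrafted lungs stood above that of WT lungs in Cma1, while the WT mean lay between the means of the KitWsh groups in Arg1 and Timp1. For Cma1, Cpa3 (3.13 and 3.17) and Tpsb2 (2.37 and 2.41) the WT OVA mean was under 5 and not above the KitWsh OVA mean. These protease transcripts thus did not tell WT from KitWsh lungs here. The WT OVA mean was the higher one for Kit (9.78 and 6.30) and Hdc (10.70 and 10.10).

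Of the 81 called genes chosen for naming, 33 were called whichever single array was left out, among them Arg1, Timp1, Saa3, Orm1, Fxyd4, Cma1, Cpa3, Cfi, Ccl11, Agr2, Il6, Ccl3, Cd163, Marco, Hspa1b, Hsph1, Mt2, Tfrc, Tnc, Nr1d1, Dbp, Per1, Nfil3, Ccl5, Lama3 and Bex2. The others lost the call without at least 1 array, 47 of them without KitWsh array 2, 42 without KitWsh array 3, 39 without KitWsh array 4, 31 without engrafted array 1 and 29 without engrafted array 3, and 7 to 9 without each of the remaining arrays. None changed direction.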

How the data were processed

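Lung RNA of 8 arrays in this comparison, and of 6 further arrays from PBS-treated mice, was taken from a table of 45101 probe sets on 36 arrays. Its log2 intensities were deposited as GCRMA output, as the submitters' processing notes name it (version not given in the sources used here), which corrects background by probe sequence, normalises by quantiles and summarises each probe set. They ran from 2.19 to 15.9. The number of arrays limits the precision.

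The 64 control probe sets served only as quality measures. GEO's platform annotation gave 1 symbol for 34945 of the other probe sets, several for 932 and none for 9160, and each of 18193 genes was represented by its brightest probe set (mean of 36 arrays). Genes reaching over log2 5 on 3 or more of the 8 arrays, 11121 in all, were tested with limma 3.58.1 in R 4.3.3 (lmFit and eBayes, 6 residual degrees of freedom), two-sided, with Benjamini-Hochberg adjustment over all of them. Calls are adjusted p under 0.05. The OVA and PBS gaps were compared in 1 fit of 14 arrays (11300 genes, 10 residual degrees of freedom). A difference is given ± its standard error. "At least" marks a fold whose lower group lay under 5 on all its arrays and was set to 5. On simulated data of 11121 genes with 200 changed (10 draws), 45% of 2-fold and 89.8% of 4-fold changes were recovered, and 5.27% of calls were false. The simulated noise was independent between genes and arrays, with no degraded array, so these rates need not hold for the calls reported here.

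Named genes were the 12 highest and 12 lowest calls, 5 and 5 calls of the OVA against PBS comparison, the mast cell list and the members of described lists with the smallest p, passing over immunoglobulin and T cell receptor segments and predicted genes. Other genes were named after their values were seen. The 42 gene lists held 627 genes, of which 567 had values and 471 were tested. Members and lists were chosen with earlier results of these data known. The counts of lists without the degraded array and with the beta-actin covariate, and the values against KitWsh OVA array 1, were added after seeing the data. Promoter sequences come from RefSeq (GRCm38.p6). Raw scans were not used here.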

Additional observations from a re-analysis of the deposited data

Results flagged for a closer look

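Single arrays stood apart from the other 3 of their group in 19 of 178 groups of values examined, where chance gives about 1 in 20. The measure is the gap to the nearest array divided by the whole range of the group. For KitWsh OVA array 3 it was 0.837 for Saa3, 0.939 for Slc26a4, 0.892 for Agr2, 0.870 for Il33, 0.889 for Ms4a6d, 0.985 for Rrm2, 0.932 for Camp and 0.846 for Tcf21. This array was the lowest of its group for Saa3 (3.90), Slc26a4 (4.60), Agr2 (5.23) and Il33 (11.18). For the degraded KitWsh_MC OVA array 2 it was 0.901 for the beta-actin and 0.880 for the GAPDH difference, 0.848 for Chl1, 0.900 for Nox4 and 0.831 for Dcn. The others were KitWsh_MC OVA array 1 for Camp (0.968), KitWsh_MC OVA array 3 for Cdkn1a (0.899), KitWsh OVA array 1 for Cfi (0.843) and Hdc (0.968), KitWsh OVA array 2 for Orm1 (0.837) and KitWsh OVA array 4 for Il6 (0.935).

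The gap between KitWsh_MC and KitWsh lungs differed between OVA and PBS by the test of that difference (limma, adjusted p under 0.05) for 38 of 87 named genes, most of which were chosen for their gap after OVA. Over all 11300 genes of that test, 190 (1.68%) were called. The 8 OVA arrays used for the choice are also in the test, so the count of 38 is partly set by the choice. On the log2 scale the gap after OVA was above that after PBS by 6.86 for Saa3, 5.41 for Arg1, 5.10 for Timp1, 4.43 for Orm1, 4.35 for Slc26a4, 4.00 for Fxyd4, 3.55 for Cfi, 3.49 for Aldh1a3, 3.48 for Chl1, 3.39 for Ccl11 and 3.19 for Il6. Smaller positive values were found for Hspa1b (2.98), Cd163 (2.92), Agr2 (2.84), Cpa3 (2.82), Tnc (2.77), Nfil3 (2.44), Ccl3 (2.13), Hspa1a (2.10), Tfrc (1.89), Atf3 (1.88), Hsph1 (1.73), Cd14 (1.61), Slc39a14 (1.46), Oas2 (1.44), Mt2 (1.42), Acta2 (1.22), Creld2 (1.12) and Hspe1 (1.00). The gap after OVA was below that after PBS for Fabp1 (−4.19), Nr1d1 (−4.13), Dbp (−2.79), Siglecf (−2.68), Ear3 (−2.64), Bex2 (−2.64), Ccl5 (−1.84), Cd5 (−1.48) and Ednrb (−1.05). For Arg1, Orm1, Fxyd4, Cfi, Chl1, Aldh1a3, Ccl11, Il6, Cpa3, Nfil3 and Ccl3 all lungs but the KitWsh_MC OVA ones were under 5, and for Cd5 all but the KitWsh OVA ones, so these values rest on low levels and are not exact sizes.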

How the results depend on the processing

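The 616 calls became 46 with no filter on low values (37 higher and 9 lower), 317 with the mean of all probe sets of a gene, 201 with the beta-actin difference as a covariate, 1008 with all 36 arrays in the fit, 3612 with KitWsh_MCigeR PBS array 2 left out of these and 2612 with array weights. The share of higher calls was 53.6% in the reported fit, 80.4% with no filter and 73.6% with the covariate. Other filters, the choice of probe set over the 8 arrays, quantile normalisation, median centring and a trended robust prior gave 548 to 919. Leaving out 1 array gave 105 (without KitWsh array 2) to 950 (without KitWsh_MC array 4), and 60 to 678 for the 190 calls of the OVA against PBS difference. The GAPDH difference between groups was 1.45 to 2.98 over these omissions, with an exact permutation p of 0.0286 without KitWsh_MC array 4 (n = 3 against 4). Of 81 called named genes, 9 stayed called under all 20 settings: Timp1, Orm1, Fxyd4, Cma1, Cfi, Dbp, Creld2, Mt2 and Hspa1b. The 81 were chosen mainly for large differences or small p in these data. No called gene changed sign. Uncalled genes did: Gata2 was −0.16 and Rab27b −0.19 with the mean of probe sets, and Gata2 ran from −0.0869 to 0.141 over the omissions. The causes were not tested. Of 820 recomputed list medians, 802 moved by less than 1 SD, 18 moved by more and 37 changed sign. No paired analysis was possible because the titles number the arrays once through the whole series, so the groups share no replicate number. Genes near the floor of 2.19 have no order, and their differences are bounds.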

Other observations

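Some inflammatory genes that did not pass the filter on low values still lay apart between the groups. The neutrophil chemokine Cxcl2 had 4.03, 6.50, 5.51 and 4.60 in KitWsh_MC OVA lungs, against 2.49, 2.49, 2.19 and 2.60 in KitWsh OVA lungs. The monocyte chemokine Ccl7 had 4.77, 4.94, 5.81 and 5.04 in KitWsh_MC OVA lungs, against 2.23, 2.52, 2.23 and 2.77 in KitWsh OVA lungs. The eosinophil chemokine Ccl24 had 4.37, 4.72, 5.23 and 3.97 in KitWsh_MC OVA lungs, against 2.19 in all 4 KitWsh OVA lungs. Hmox1, the enzyme that breaks down haem, had 5.94, 4.13, 5.62 and 4.25 in KitWsh_MC OVA lungs, against 2.53, 2.48, 2.48 and 2.48 in KitWsh OVA lungs. Npas2, a partner of BMAL1 in the clock, had 3.64, 5.35, 5.40 and 4.88 in KitWsh_MC OVA lungs, against 2.46, 2.30, 2.35 and 2.28 in KitWsh OVA lungs. All 5 were chosen after their values were seen and have no test.

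Among the lists not described above, 3 of 12 type I interferon genes rose, Ifit1 (1.05 ± 0.23), Oas1a (0.89 ± 0.20) and Oas2 (0.91 ± 0.23), and none did with the beta-actin covariate or without engrafted array 1 or KitWsh array 2, 3 or 4. Of 19 cell cycle genes, Rrm2 (1.82 ± 0.43) and Birc5 (1.36 ± 0.34) rose, and neither call stood without engrafted array 1, 2 or 3 or any 1 KitWsh array. Of 9 alveolar type 1 genes, Pdpn (0.92 ± 0.18) rose and Col4a3 (−1.73 ± 0.38) fell. The stress-induced transcription factor Atf3 rose by 1.10 ± 0.23, the cell cycle inhibitor Cdkn1a by 0.93 ± 0.21 and the prostaglandin synthase Ptgs2 by 1.15 ± 0.26. Serping1, the C1 inhibitor, fell by 1.13 ± 0.26 and the club cell gene Fmo2 by 1.52 ± 0.37. None of these 7 was called with the beta-actin covariate. When 1 array was left out, the call of Pdpn stood in 5 of 8 fits, those of Col4a3, Atf3, Cdkn1a, Ptgs2 and Serping1 in 3 each, and that of Fmo2 in 2. No gene was called among 14 interferon gamma response, 11 alveolar type 2, 13 ciliated cell, 9 mesothelial, 13 ribosomal protein, 12 fatty acid oxidation and 3 erythroid genes tested. With 5.54% of all tested genes called, 2.97% higher and 2.57% lower, lists this small can lack a call without differing from the rest.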
